A study of Mus musculus with 6 samples.

Results

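The genes described here encode factors through which stromal cells act on blood vessels: the ligand genes Vegfa, Vegfb and Vegfc, the coreceptor genes Nrp1 and Nrp2, the proteoglycan gene Esm1, and Angptl2 and Angptl4 of the angiopoietin-like family. These 8 genes were chosen by name, and values were read only from probe sets naming that gene alone. A single probe set did so for each of 7 members, which are 7 of the 19938 genes with a value, and Angptl2 was not analysed here. All 7 passed the filter on dim genes, which used the mean over all 6 arrays. A single probe set per gene gives 1 value for all splice forms together.

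CAR (Cxcl12-abundant reticular) cells form a stromal network along the sinusoids of the bone marrow and include precursors of bone and fat cells. The arrays compared CAR cells that Dmp1-Cre had targeted with CAR cells that it had not, 3 arrays each and 6 in all, after sorting by flow cytometry from the marrow of femur and tibia. The C57BL/6 mice were 7 weeks of age, and each had both Dmp1-Cre and 1 gfp-bearing copy of Cxcl12 (genotype Dmp1-Cre Cxcl12-gfp/+), so both groups share the transgene and the altered Cxcl12 locus. The Cre is expressed under control of Dmp1 sequence, Dmp1 being a matrix gene of late osteoblasts and osteocytes, and the label that showed targeting is not given in the sources used here. The design text gives 3 mice and 1 mouse per sample, and the labels do not say whether the same mice gave both populations.

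Vascular endothelial growth factors are secreted dimers that bind receptor tyrosine kinases on endothelial cells. Vegfa is the main signal for blood vessel growth and is induced by low oxygen, Vegfb binds the receptor Flt1, and Vegfc acts mainly on lymphatic endothelium and on marrow sinusoids through Flt4. Neuropilins are coreceptors without a kinase, which bind both these ligands and class 3 semaphorins. In marrow, sinusoidal endothelium depends on these signals and stromal cells are one of their sources.

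The sequences before the starts of the coreceptor genes, of Esm1 and of Vegfa are shown because the comparison turns on the first 3 of these genes and Vegfa is the reference ligand. Each run is the 250 bases before the annotated start, 5′ to 3′ on the gene's own strand, from RefSeq on GRCm38.p6, and capitals mark the GC box GGGCGG or its reverse complement CCGCCC, the element bound by Sp-family factors. The windows were chr8:128358823-128359072 on the plus strand for Nrp1, chr1:62703067-62703316 on the plus strand for Nrp2, chr13:113209409-113209658 on the plus strand for Esm1 and chr17:46032378-46032627 on the minus strand for Vegfa, the farther upstream of the 2 starts listed for that gene.
Nrp1: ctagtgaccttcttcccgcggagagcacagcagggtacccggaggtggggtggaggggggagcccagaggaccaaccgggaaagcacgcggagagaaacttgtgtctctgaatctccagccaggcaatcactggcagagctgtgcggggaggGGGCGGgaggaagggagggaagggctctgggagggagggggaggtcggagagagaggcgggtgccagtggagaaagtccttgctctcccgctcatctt
Nrp2: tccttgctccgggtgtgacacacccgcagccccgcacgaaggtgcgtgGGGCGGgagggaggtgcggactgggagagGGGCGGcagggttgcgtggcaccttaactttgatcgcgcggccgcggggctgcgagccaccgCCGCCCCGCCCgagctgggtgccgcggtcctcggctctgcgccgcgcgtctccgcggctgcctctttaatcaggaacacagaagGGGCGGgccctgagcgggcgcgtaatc
Esm1: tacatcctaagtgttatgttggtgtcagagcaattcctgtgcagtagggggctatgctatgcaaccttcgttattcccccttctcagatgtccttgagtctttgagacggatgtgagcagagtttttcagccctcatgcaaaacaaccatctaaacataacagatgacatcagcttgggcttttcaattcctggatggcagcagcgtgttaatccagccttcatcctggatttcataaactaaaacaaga
Vegfa: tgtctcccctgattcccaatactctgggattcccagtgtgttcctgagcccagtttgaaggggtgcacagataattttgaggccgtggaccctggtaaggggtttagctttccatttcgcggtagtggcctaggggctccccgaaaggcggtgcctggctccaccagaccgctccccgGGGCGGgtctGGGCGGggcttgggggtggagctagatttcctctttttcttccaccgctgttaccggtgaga
The Nrp2 window held 5 GC boxes, of which a neighbouring pair overlap by a base, the Vegfa window held 2, the Nrp1 window 1 and the Esm1 window 0. A GC box was present in 32.7% of the 32851 windows of this length in the RefSeq table. The G and C content was 72.4% for Nrp2, 64.4% for Nrp1, 59.2% for Vegfa and 44.0% for Esm1, against a median of 52.4% over all windows. Esm1 held 3 CpG dinucleotides, Nrp1 and Vegfa 11 each and Nrp2 32, against a median of 6. The core of the hypoxia response element, ACGTG or its reverse complement CACGT, was in none of the 4 windows printed and in 16.6% of all windows, which says only that these letters are not in these stretches. It occurred 1 time in the window of the other Vegfa start, chr17:46025164-46025413 on the minus strand, which is not printed. The table held a window for 7 of the 8 members, all but Angptl4.

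Nrp1 and Esm1 were lower in targeted cells on every array. Vegfa, Vegfb, Vegfc and Angptl4 had mean differences near 0 and overlapping arrays, which does not show that their levels were equal. On the log2 scale the limma intervals of Vegfa (-0.48 to 0.51) and Angptl4 (-0.58 to 0.54) include the Esm1 difference of -0.48. Those of Vegfb (-0.43 to 0.36) and Vegfc (-0.36 to 0.44) do not. Nrp1 was 1.47-fold and Esm1 1.39-fold lower. Nrp2 was 1.29-fold higher on average, and that average rested on 1 targeted array. No member passed the limma threshold of 0.05 after Benjamini-Hochberg adjustment over the 13292 genes tested, where 0% of genes passed (0 genes, against 634 at an unadjusted p under 0.05). Among the members, 2 of 7 had all targeted arrays below all non-targeted ones, against a background of 5.76% of genes tested, and 0 of 7 had them above, against 3.32%. The same 2 of 7 members had an unadjusted p under 0.05, against 4.77% of genes tested in either direction, 3.42% lower and 1.35% higher in targeted cells. The median difference over the 7 members was -0.02 on the log2 scale and that of all genes tested -0.01.

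**Figure D1:**
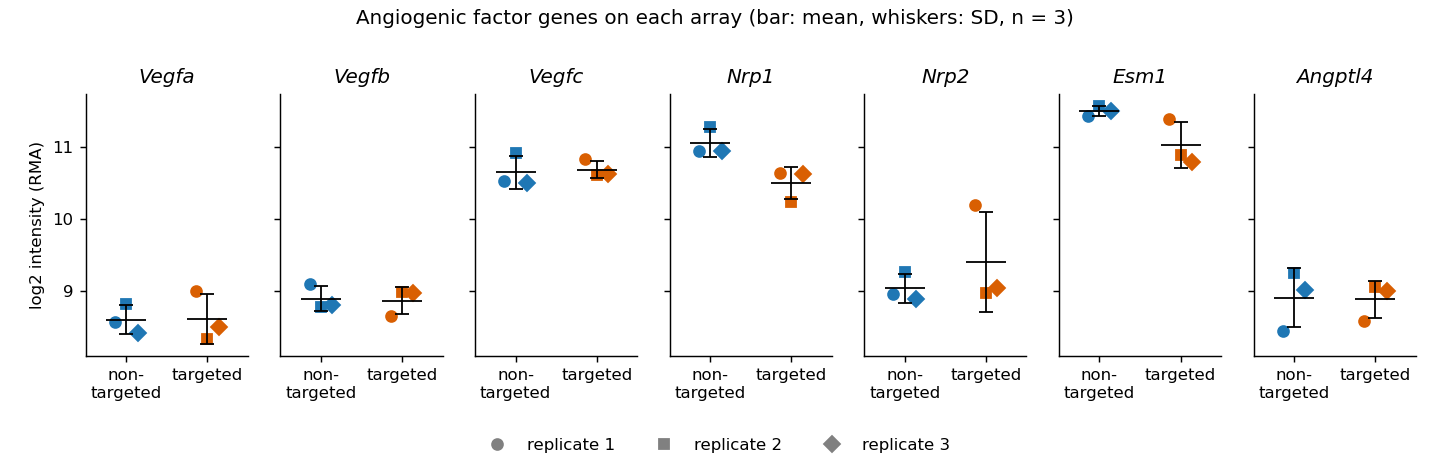
Log2 RMA intensity of the 7 measured members on each of the 6 arrays, with non-targeted arrays in blue, targeted arrays in orange, the replicate number as the marker shape, the group mean as a bar and the SD as whiskers (n = 3). The targeted points of Nrp1 and Esm1 lie below the non-targeted ones, Nrp2 has 1 targeted point at 10.20 above all others, and heights are not comparable between panels because each gene has its own probes.

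Vegfa, the ligand that drives sprouting of blood vessels, showed no separation. Its log2 intensity was 8.57, 8.82 and 8.42 on non-targeted replicates 1, 2 and 3 and 9.0, 8.34 and 8.50 on the targeted ones. The targeted arrays held both the highest and the lowest value of the 6. The group means were 8.60 ± 0.20 and 8.61 ± 0.35 (SD, n = 3), a log2 difference of 0.01 (SE 0.21, 95% interval -0.48 to 0.51; limma adjusted p = 0.9998). The interval reaches from 1.40-fold lower to 1.42-fold higher in targeted cells, so a change within those bounds is not excluded. The bounds are not a detection limit, since larger differences can also fail the adjusted threshold with this number of arrays.

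Vegfb, a ligand of Flt1 linked to fatty acid handling rather than to sprouting, was at 9.09, 8.78 and 8.81 on the non-targeted and 8.65, 8.98 and 8.97 on the targeted arrays. Its groups overlapped, with replicate 1 the highest of the non-targeted and the lowest of the targeted arrays. The log2 difference was -0.03 (SE 0.17, 95% interval -0.43 to 0.36; limma adjusted p = 0.9998). Its direction turned in both the quantile and the cyclic loess scaling, so no direction is given.

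Vegfc, the ligand of lymphatic and sinusoidal endothelium, was at 10.53, 10.92 and 10.50 on the non-targeted and 10.83, 10.62 and 10.63 on the targeted arrays. All 3 targeted values lay within the non-targeted range. The log2 difference was 0.04 (SE 0.17, 95% interval -0.36 to 0.44; limma adjusted p = 0.9998), which bounds a change at 1.28-fold lower or 1.36-fold higher.

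The 2 remaining ligands of the family, taken from a list of pathway genes, had lower means in targeted cells than in non-targeted cells and overlapping arrays. Vegfd, a relative of Vegfc, was at 6.77 ± 0.29 against 7.26 ± 0.29 (SD, n = 3), a log2 difference of -0.49. Pgf, the placental growth factor gene, was at 9.36 ± 0.26 against 9.68 ± 0.20, a difference of -0.32. Over the 5 ligands, 0 passed and 0 had non-overlapping arrays, against 9.07% of genes tested. With so few genes a count of 0 says little about the ligands.

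**Figure D2:**
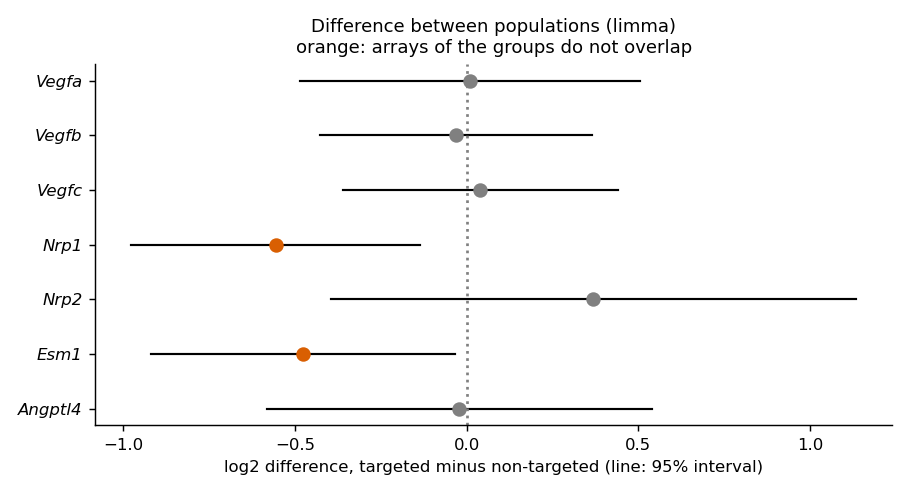
Log2 difference, targeted minus non-targeted, of the 7 measured members from the limma fit on 6 arrays, with lines for the 95% interval and orange for genes whose arrays do not overlap between the groups. The intervals of Nrp1 (-0.98 to -0.14) and Esm1 (-0.92 to -0.03) lie below 0, before any adjustment over the genes tested, and the other 5 cross it.

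Nrp1, a coreceptor for Vegfa and for Sema3a, was at 10.95, 11.28 and 10.95 on the non-targeted arrays and at 10.64, 10.24 and 10.63 on the targeted arrays. The lowest non-targeted and the highest targeted array were 0.31 apart on the log2 scale, about the spread within the non-targeted group, which was 0.33. The means were 11.06 ± 0.19 and 10.50 ± 0.23 (SD, n = 3), a log2 difference of -0.56 (SE 0.18, 95% interval -0.98 to -0.14). The unadjusted limma p was 0.016, rank 221 of the 13292 genes tested, and the adjusted p was 0.947, so the difference did not pass. A difference at least as large in either direction was seen for 5.2% of genes tested. Leaving out each array in turn gave -0.62 to -0.43. In these sorted populations fewer expressing cells and less RNA per cell cannot be told apart.

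Nrp2, the coreceptor used by Vegfc and by Sema3f, had a different pattern. It was at 8.95, 9.27 and 8.89 on the non-targeted and 10.20, 8.97 and 9.04 on the targeted arrays. Targeted replicate 1 stood alone at the top and the other 2 targeted arrays lay within the non-targeted range. The log2 difference was 0.37 (SE 0.33, 95% interval -0.39 to 1.13; limma adjusted p = 0.9998), and without targeted replicate 1 it was -0.03.

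The balance of the coreceptors was read within each array as the log2 ratio of the Nrp1 to the Nrp2 intensity, a quantity whose zero depends on the probes, so that only its change can be read. It was 2.00, 2.01 and 2.07 on the non-targeted arrays and 0.43, 1.27 and 1.60 on the targeted arrays. All targeted arrays lay below all non-targeted ones, whose spread was small (SD 0.04 against 0.60, n = 3 each). The ratio differed by -0.93 on the log2 scale, and by -0.59 without targeted replicate 1. Nrp1 alone differed by -0.62 without that array, so the ratio then showed no change beyond that of Nrp1. The log2 ratio of Vegfa to Nrp1 did not overlap between the groups either. It differed by 0.57, and by 0.44 without targeted replicate 1. A two-sided exact permutation test gave p = 0.1 for each ratio, the smallest it can give with 3 arrays against 3. Both ratios were formed after the values of the genes were known.

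**Figure D3:**
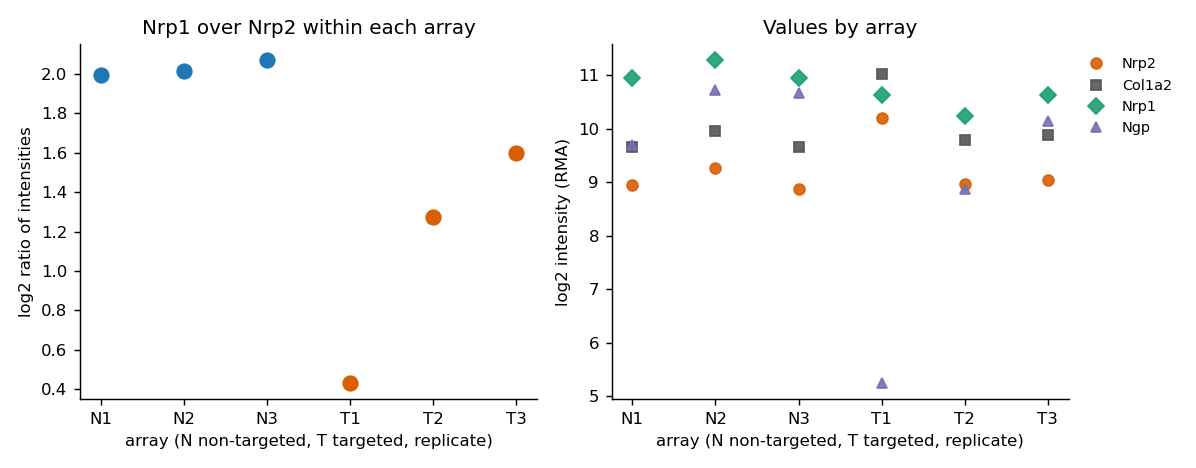
Left, the log2 ratio of Nrp1 to Nrp2 intensity on each array, near 2 on the 3 non-targeted arrays (blue) and from 0.43 to 1.60 on the 3 targeted ones (orange). Right, log2 intensity of Nrp2, Nrp1, the collagen gene Col1a2 and the neutrophil precursor gene Ngp by array, where targeted replicate 1 (T1) is the highest for Nrp2 and Col1a2 and the lowest for Ngp.

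Targeted replicate 1 differed from the other arrays in marker genes as well. The collagen gene Col1a1 was at 10.93 there and at 8.46 to 9.34 on the other 5 arrays, and the osteoblast markers, 7 of 10 with a value, averaged a log2 intensity of 10.95 there against 10.16 and 10.30 on the other targeted and 9.42 to 9.58 on the non-targeted arrays. These 7 include Dmp1, the gene used to check the sort, and 6 had a higher and 1 a lower mean in targeted cells. Their log2 differences ran from 3.28 for Dmp1 to -0.22 for Phex. The 12 neutrophil and precursor markers averaged 6.27 on targeted replicate 1 and 7.78 to 8.69 on the other arrays. Their part in the Nrp2 value was not tested. The gene whose centred values lay nearest to those of Nrp2 over the 6 arrays was Col1a2, a chain of type I collagen, with a root mean square distance of 0.06 on the log2 scale against 0.46 for Nrp2 about its own mean. Col1a2 was at 11.02 on targeted replicate 1 and at 9.66 to 9.96 on the other 5. The next nearest was Asap1, a regulator of Arf GTPases, at 0.07.

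The receptors that carry the signal of these ligands were close to the dim limit of 6.00 on the log2 scale. Flt1 had means of 6.14 ± 0.16 without and 6.18 ± 0.22 with targeting (SD, n = 3), a log2 difference of 0.04. Its sign turned in the cyclic loess scaling, without non-targeted replicate 2 and without targeted replicate 2. Kdr, the main signalling receptor of Vegfa, ran from 4.99 to 5.93 over the arrays and Flt4, the receptor of Vegfc, from 5.51 to 6.02. Both were left out of the test as dim.

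Esm1 encodes endocan, a secreted proteoglycan that is known from endothelial tip cells and is also expressed by marrow stroma. It was at 11.43, 11.58 and 11.51 on the non-targeted arrays and at 11.40, 10.90 and 10.80 on the targeted ones. The groups did not overlap, but targeted replicate 1 lay only 0.03 below the lowest non-targeted array, while the other 2 targeted arrays were clearly apart. The means were 11.51 ± 0.07 and 11.03 ± 0.32 (SD, n = 3), a log2 difference of -0.48 (SE 0.19, 95% interval -0.92 to -0.03). The unadjusted limma p was 0.0386 and the adjusted p 0.9998, so the difference did not pass. Without targeted replicate 1 the difference was -0.66, and without targeted replicate 3 it was -0.36, the extremes over the arrays left out.

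Nrp1 and Esm1 are also endothelial genes, and endothelial markers were near or below the dim limit in both populations. Of 19 endothelial marker genes, 11 were dim, and the highest value of any of them on any array was 7.24. Pecam1, an adhesion gene present on all endothelium, ran from 5.44 to 5.85 and was dim. The summed intensity of the 19 markers was 1164 to 1387 on the targeted and 1104 to 1412 on the non-targeted arrays. Of the 8 tested, 6 had a higher and 2 a lower mean in targeted cells, with a median log2 difference of 0.095. Without targeted replicate 1 all 8 had a higher mean (median 0.157). Without non-targeted replicate 2, 4 were higher and 4 lower (median 0.009). Non-overlapping arrays were seen for 0 of the 8, against 9.07% of genes tested. All 10 CAR cell markers passed the dim filter and 10 had a lower mean in targeted cells, where 51.1% of all genes tested had one. Without non-targeted replicate 2, or without targeted replicate 2, 9 of the 10 did. The median log2 difference was -0.29 and ran from -0.43 without targeted replicate 1 to -0.19 without targeted replicate 2. The arrays of 2 of the 10 (Lepr and Grem1) did not overlap, against 5.76% of genes tested that were lower on all targeted arrays. The summed intensity of the 10 was 28703 to 35832 on the targeted and 34470 to 42105 on the non-targeted arrays. Their part in the values of Nrp1 and Esm1 was not tested.

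The genes with the pattern nearest to Nrp1 and Esm1 over the 6 arrays were found by the root mean square distance of centred log2 values. For Nrp1 they were Tcp11l1, at a distance of 0.04, and Ddr1, a collagen receptor kinase, at 0.07, against 0.33 for Nrp1 about its own mean. For Esm1 they were Arsb, a lysosomal sulfatase of glycosaminoglycans, and Emp2, a membrane protein gene, each at 0.05 against 0.30. Emp2 was at 11.27, 11.40 and 11.36 on the non-targeted and 11.18, 10.63 and 10.68 on the targeted arrays, so it too had targeted replicate 1 close to the non-targeted arrays. With 6 arrays and 13292 genes near matches are common, and the distances are given as a description.

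**Figure D4:**
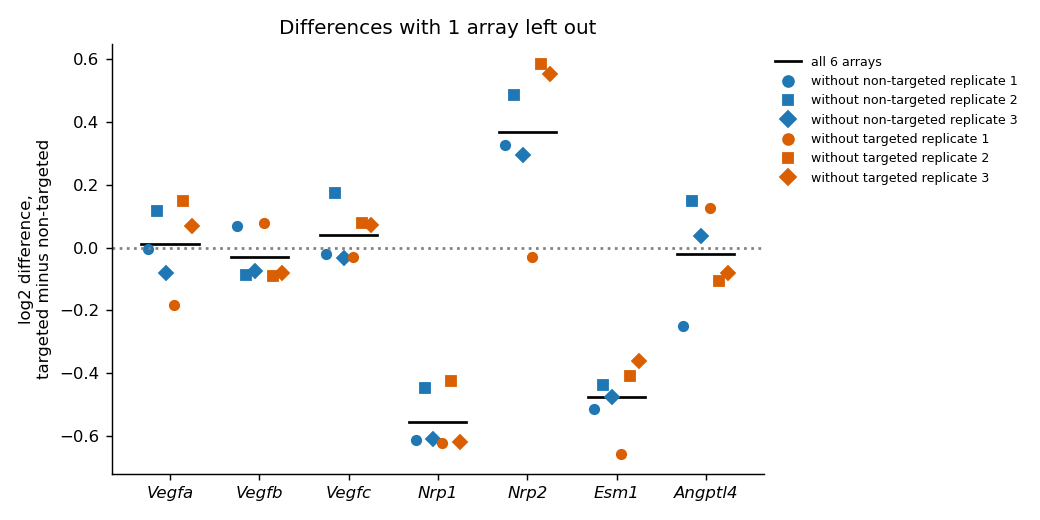
Log2 difference, targeted minus non-targeted, of the 7 members with all 6 arrays (black line) and with each array left out in turn (blue for non-targeted, orange for targeted, marker shape for the replicate number). Nrp1 stays between -0.62 and -0.43 and Esm1 between -0.66 and -0.36, Nrp2 drops to -0.03 without targeted replicate 1, and the other 4 scatter around 0.

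Angptl4 encodes a secreted inhibitor of lipoprotein lipase that is induced by fatty acids, fasting and low oxygen and alters vessel permeability. It was at 8.45, 9.24 and 9.02 on the non-targeted and 8.59, 9.06 and 9.0 on the targeted arrays. In both groups replicate 1 was the lowest array, and all 3 targeted values lay within the non-targeted range. The log2 difference was -0.02 (SE 0.24, 95% interval -0.58 to 0.54; limma adjusted p = 0.9998), and it turned in the quantile and cyclic loess scalings. For Angptl4 the nearest patterns were those of Traf3ip2, a signalling adaptor, and Tufm, a mitochondrial elongation factor, both at 0.06 against 0.28. For Vegfa they were Rad18, a ubiquitin ligase of DNA repair, at 0.04 and Rc3h2, an RNA-binding protein, at 0.05, against 0.23. Vegfb had Ip6k3 at 0.01 and Rdh9 at 0.02 against 0.15, and Vegfc had Gtf3c1 and Ighmbp2, both at 0.04 against 0.15.

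The angiopoietin-like list held 6 symbols, of which 4 had a value and 3 were tested. Angptl1 averaged 6.77 ± 0.82 with targeting and 7.63 ± 0.33 without (SD, n = 3), with a log2 difference of -0.86 (-1.30 without targeted replicate 1) that did not pass, and Angptl6 differed by -0.03. Of the tested partners of these proteins, 5 of 7 symbols, 1 had a higher and 4 a lower mean in targeted cells. Among them 0 passed and 0 had non-overlapping arrays, against 9.07% of genes tested. Lpl, the lipase that Angptl4 inhibits, was at 11.48 ± 0.30 against 11.89 ± 0.34, a difference of -0.41 (95% interval -0.95 to 0.13). Itgb1 differed by -0.20, Itga5 by -0.21 and Gpihbp1, which holds the lipase on capillaries, by 0.07, turning without non-targeted replicate 2 or targeted replicate 3. Among PPAR factors and their target genes, which include regulators of Angptl4, 10 were tested, with 3 higher and 7 lower means and a median of -0.11. Pdk4, a kinase that restrains glucose oxidation, was at 9.34 ± 0.17 against 8.89 ± 0.19, 1.37-fold higher with non-overlapping arrays (limma unadjusted p = 0.0298, adjusted p = 0.970). Fabp4 differed by -0.69 and Pparg by -0.48, both with overlapping arrays.

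Angiopoietins, the ligands of the receptor Tek that set vessel stability, had mean differences in both directions, and none passed. Angpt4 was at 8.17, 8.09 and 8.54 on the non-targeted and 9.14, 8.81 and 9.10 on the targeted arrays. All 3 targeted arrays were higher, as for 3.32% of genes tested. The 1.69-fold difference (log2 difference 0.75, SE 0.18, limma unadjusted p = 0.0036, adjusted p = 0.758) did not pass over all genes. Leaving out each array gave 0.67 to 0.89. Angpt1, the stabilising ligand made by CAR cells, differed by -0.49, and Angpt2, which opposes it, by -0.82 (-1.22 to -0.31 over the arrays left out). The arrays overlapped for both. Tie1 was at 6.49 ± 0.08 against 6.34 ± 0.13 and Tek was dim.

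Among 12 class 3 semaphorins and plexins, the ligands and signalling partners of neuropilins, 8 were tested, 4 with a higher and 4 with a lower mean, and a median log2 difference of -0.03. Plxna1 averaged 8.53 ± 0.05 with targeting and 8.79 ± 0.18 without (SD, n = 3), a difference of -0.26 with non-overlapping arrays. Plxna2 differed by 0.27, Plxna3 by 0.20 and Plxnd1 by -0.08, the last turning without non-targeted replicate 2, without targeted replicate 2 and in the cyclic loess scaling. None of the 8 passed.

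Secreted growth factors with action on endothelium were evenly split in the fit on all 6 arrays. Of 18 symbols, 14 were tested, 7 with a higher and 7 with a lower mean. Without targeted replicate 1, 5 had a higher and 9 a lower mean (median -0.105). Without targeted replicate 2, or without targeted replicate 3, 8 were higher and 6 lower. In each direction 1 gene had non-overlapping arrays, against 3.32% of genes tested higher and 5.76% lower. Pdgfc, a ligand of the PDGF alpha receptor, was at 6.95, 5.76 and 5.94 on the non-targeted and 9.67, 6.71 and 7.79 on the targeted arrays, a 3.58-fold difference with overlapping arrays (limma unadjusted p = 0.030, adjusted p = 0.971). It was again highest on targeted replicate 1, without which the log2 difference went from 1.84 to 1.03. Ccn1 differed by -0.33, Igf1 by -0.35 and Pdgfb by 0.19.

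Angiogenesis inhibitors and hypoxia genes had mostly lower means in targeted cells. Of 13 tested inhibitors 10 had a lower mean and 3 a higher one, with a median of -0.11, where 51.1% of all genes tested had a lower mean. Leaving out targeted replicate 1 gave a median of -0.22 and leaving out targeted replicate 3 one of -0.05. It was -0.16 when non-targeted replicate 1 was dropped and -0.04 when non-targeted replicate 2 was, and in the cyclic loess scaling 8 had a lower and 5 a higher mean. Cxcl10, an interferon-induced chemokine that restrains vessel growth, was at 9.02, 8.57 and 8.92 on the non-targeted and 7.36, 7.32 and 7.82 on the targeted arrays. The groups were far apart relative to their spread, a 2.52-fold difference (log2 difference -1.33, SE 0.20; limma unadjusted p = 0.000202), yet the adjusted p over all genes was 0.701. Thbs1 differed by -0.36, Thbs2 by -0.32 with non-overlapping arrays and Adamts1 by -0.42.

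Hypoxia sensing and hypoxia-induced genes, which share a regulator with Vegfa and Angptl4, had 13 lower and 2 higher means among 15 tested, with a median of -0.20. In 4 of the 15 the arrays did not overlap, all lower in targeted cells, against 5.76% of genes tested. Ndrg1, a stress-induced gene, was at 8.25 ± 0.46 against 9.07 ± 0.19 (SD, n = 3), 1.77-fold lower (limma unadjusted p = 0.011, adjusted p = 0.882). P4ha1, a collagen hydroxylase, was 1.35-fold lower and Slc2a1, the glucose transporter GLUT1, 1.24-fold lower, both with non-overlapping arrays. Egln2, an oxygen sensor, differed by -0.31 with overlapping arrays. In the quantile and cyclic loess scalings 12 and 10 of the 15 had lower means. No gene of these 10 lists passed over all genes.

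**Figure D5:**
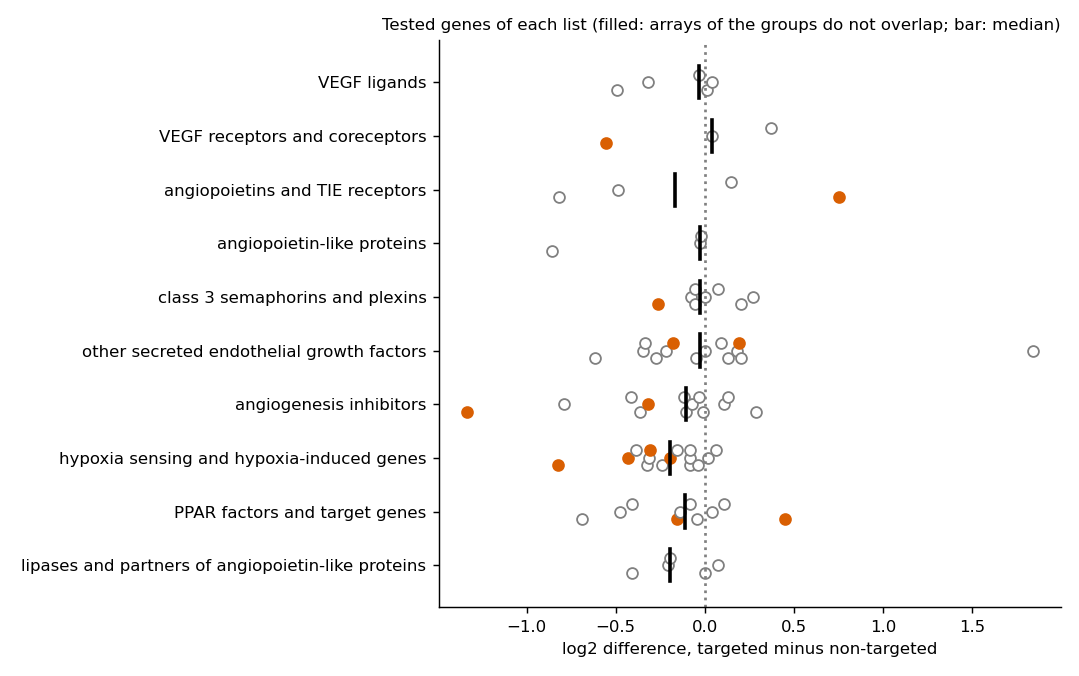
Log2 difference, targeted minus non-targeted, of every tested gene in the 10 pathway lists, with filled orange points for genes whose arrays do not overlap between the groups and a bar at each list's median. The medians run from -0.20 for hypoxia genes to 0.04 for receptors, and the points farthest out are Pdgfc at 1.84 and Cxcl10 at -1.33.

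As a check on the sort, Dmp1 was at 9.89 to 11.28 on the targeted and 6.91 to 7.51 on the non-targeted arrays. Array medians ran from 79.4 to 87.5 in intensity, and pairs of arrays correlated across genes at 0.91 to 0.96. The lists for other marrow cells gave median log2 differences of 0.06 for macrophages (6 tested), 0.00 for megakaryocytes (5), -0.01 for B cells (4), 0.06 for erythroid cells (3), 0.12 for osteoclasts (5), 0.08 for chondrocytes (3), 0.11 for pericytes and smooth muscle (8), -1.14 for neutrophils (10) and 1.04 for osteoblasts (7). A median near 0 does not mean that every gene of a list was level. Vpreb1 differed by -1.54 among the B cell genes (1 higher and 3 lower means), with overlapping arrays. Pf4 differed by -0.79 among the megakaryocyte genes (3 higher and 2 lower), also with overlapping arrays. Among the pericyte and smooth muscle genes (5 higher and 3 lower) Abcc9 differed by 0.75 and Rgs5 by -0.83. Arrays did not overlap for these 2, against 9.07% of genes tested. Without targeted replicate 1 the neutrophil median was -0.29 and the osteoblast median 0.51. The neutrophil median was -1.75 when targeted replicate 3 was left out.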

How the data were processed

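Each sample was hybridised to 1 Affymetrix mogene array. The deposited values were linear intensities per probe set; the submitters' processing notes name RMA and Affymetrix Expression Console (version 1.4), and log2 was taken here. The authors' annotation and genome build: not given in the sources used here. Of 35556 probe sets, 21789 named 1 gene in the platform annotation, 1621 several and 12146 were not listed. Symbols were updated through the Entrez identifier (21698 matched). The brightest probe set per gene was kept (19938 genes), and the lowest 33.3% by mean were left out as dim, leaving 13292.

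The comparison, targeted minus non-targeted, used lmFit and eBayes of limma 3.58.1 under R 4.3.3 without covariates, two-sided, with Benjamini-Hochberg adjustment over all genes tested. The SE and the 95% interval come from limma's moderated variances, and each SD is over the 3 arrays of a group. The fit was tested on simulated data with known changes. The members, the 10 pathway lists and the 11 marker lists were chosen with earlier results of these data known. Named genes were the members, up to 4 genes of each pathway list by smallest p, and the 2 nearest patterns per member, leaving out predicted models and small RNAs. The individual marker genes given for targeted replicate 1 and beside the medians of the marker lists were chosen after their values were seen. Alternatives were other scalings, filters, variance models, array weights, probe set means, a replicate block and leaving out each array. The number of arrays limits the precision.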

Additional observations from a re-analysis of the deposited data

How the results depend on the processing

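Nrp1 and Esm1 kept their direction under all 18 alternatives and passed under none, their smallest adjusted p being 0.2045 and 0.1696, both with array weights (limma). Most alternatives could not turn it, as they left the difference unchanged or used arrays that did not overlap between the groups. Only the scalings (quantile, cyclic loess and median centring) could, and they gave -0.55 to -0.48 for Nrp1 and -0.47 to -0.40 for Esm1. The count of genes called was 0 under all alternatives but 2: it was 1 with array weights and 1 with the fixed replicate block, Dmp1 each time. The members with differences near 0 turned sign. In quantile normalization Angptl4 was at 0.0404 and Vegfb at 0.0141, in cyclic loess they were at 0.0554 and 0.0450, and with array weights Vegfb was at 0.0960; another scaling moved the median of all genes by at most 0.02. Leaving out 1 array gave ranges of -0.25 to 0.15 for Angptl4, -0.18 to 0.15 for Vegfa, -0.0887 to 0.0784 for Vegfb, -0.0324 to 0.17 for Vegfc and -0.0300 to 0.59 for Nrp2. On replicates 2 and 3 alone, an alternative chosen after seeing the data, Nrp2 was at -0.0718, Vegfa at -0.20, Vegfb at 0.18 and Vegfc at -0.0911. The cause was not tested, save that the sign of Nrp2 rested on targeted replicate 1.

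No label ties the replicate numbers to mice. For that reason the pairing of same-numbered arrays was not used in the main fit. Deviations from the group means correlated at -0.26, -0.12 and 0.07 for same-numbered arrays. With so few arrays per group, these values cannot show whether same-numbered arrays came from the same mouse. With the fixed replicate block the unadjusted limma p of Nrp1 was 0.0456 and that of Esm1 0.0720, and with the random replicate block 0.0219 and 0.0587, while the differences stayed -0.56 and -0.48. No adjusted p crossed the threshold for any member.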

Other observations

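Among the ligands that lay under the dim limit of 6.00 and were not tested, 3 are given by their values, chosen after these were seen, and a change is not read from signals this low. Sema3d, a secreted class 3 semaphorin, was at 4.79, 4.19 and 4.32 on the non-targeted and 5.56, 5.0 and 4.87 on the targeted arrays. Fgf2, a growth factor for endothelial and stromal cells, was at 5.54, 5.68 and 5.96 on the non-targeted and 4.97, 5.24 and 5.36 on the targeted arrays. Sema3a, the semaphorin that binds Nrp1, was at 6.19 on targeted replicate 1 and at 4.85 to 5.30 on the other 5 arrays, the same array on which Nrp2 was highest.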
